A study of Mus musculus with 4 samples.

Results

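The transcripts of 10 BCL2 family genes were measured in the hippocampus after global cerebral ischemia (GCI), 7 that promote cell death (Bax, Bak1, Bad, Bid, Bbc3, Pmaip1 and Bcl2l11) and 3 that oppose it (Bcl2, Bcl2l1 and Mcl1). The genes were chosen by symbol, with earlier results of these data known, from the 22609 gene symbols counted in each library. All 10 were found and all 10 were among the 14527 genes that passed the filter on low counts. RNA-Seq was performed on 4 hippocampus libraries of ovariectomized female mice of 3 to 5 months, 2 of the FLOX+GCI group and 2 of FBN-ARO-KO+GCI. FBN-ARO-KO mice carry a Cre/LoxP deletion of Cyp19a1, the gene for aromatase, which makes estradiol, with Cre driven by the CaMKIIα promoter in excitatory neurons of the forebrain, and FLOX mice are their controls. Every mouse had both ovaries removed 1 week before surgery, and both common carotid arteries were clipped for 20 min and then reperfused for 24 h. No sham-operated library was analysed here, so the values compare genotypes after ischemia and not ischemia with its absence. Because Cre acts only in excitatory neurons, astrocytes and the other cells of the hippocampus keep Cyp19a1 in both groups.

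Proteins of the BCL2 family set whether the outer membrane of the mitochondrion is breached, the step that commits a cell to the intrinsic pathway of apoptosis. BAX and BAK1 form the pores, through which cytochrome c leaves to activate caspases with APAF1. BCL2, BCL-XL (from Bcl2l1) and MCL1 hold the pore formers and the BH3-only proteins in check, and the BH3-only proteins (BAD, BID, PUMA from Bbc3, NOXA from Pmaip1 and BIM from Bcl2l11) relay upstream death signals either by occupying the survival proteins or by engaging BAX and BAK1. The family is known for its part in the delayed death of hippocampal CA1 neurons after global ischemia, and much of its control lies in cleavage, phosphorylation and protein turnover, which RNA counts do not record.

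What these proteins share is the BH3 segment, a short helix by which death and survival members bind each other. The coding stretches that hold its core are shown for 9 members because they are the feature that makes the 10 genes a family, 5′ to 3′ on the coding strand, from GENCODE M1 transcripts on build NCBIM37 (mm9). Capitals mark the 18-base core, which runs from a leucine codon over 3 further codons to a codon for glycine, alanine or serine and then one for aspartate, with 6 flanking bases in lower case on either side.
Bax: gagtgtCTCCGGCGAATTGGAGATgaactg
Bak1: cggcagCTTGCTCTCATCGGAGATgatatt
Bad: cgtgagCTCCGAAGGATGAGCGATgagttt
Bid: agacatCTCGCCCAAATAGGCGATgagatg
Bbc3: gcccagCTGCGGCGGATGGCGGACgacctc
Bcl2l11: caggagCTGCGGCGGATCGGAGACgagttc
Bcl2: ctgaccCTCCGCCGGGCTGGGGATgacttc
Bcl2l1: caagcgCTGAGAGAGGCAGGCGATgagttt
Mcl1: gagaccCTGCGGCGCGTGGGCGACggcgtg

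The pattern behind the capitals, read in frame, also asked for isoleucine, valine, methionine, alanine or leucine at the codon before the glycine, alanine or serine codon. The transcript shown for each of the 9 members is the longest that held the pattern, so its presence there was set by the choice. It occurred once in each. It is short, and 2760 of 22594 genes with a coding transcript (12.2%) held it in their longest one, so a match describes these letters and is not by itself a BH3 segment. Over the 36 pairs of the 9 cores, between 7 and 15 of the 18 bases were identical, with 7 for Bak1 and Bcl2l1 and 15 for Bbc3 and Bcl2l11. Only 4 positions had the same base in all 9. They are the C and T of the leucine codon and the G and A of the aspartate codon. The pattern itself fixes that T, G and A. The stretches differed in base composition, from 50% G and C in Bak1 and Bid to 76.7% in Bbc3 and 80% in Mcl1.

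The stretches lie in single exons. That of Bax, on the minus strand of chromosome 7 (chr7:52721370-52721399), is in exon 2 of 5, and that of Bbc3, on the plus strand of the same chromosome (chr7:16899116-16899145), is in exon 3 of 4. The Bak1 stretch is in exon 4 of 6 on the minus strand (chr17:27159479-27159508), the Bad stretch in exon 3 of 4 on the plus strand (chr19:7025276-7025305), and the Bid stretch in exon 4 of 7 on the minus strand (chr6:120847310-120847339). The Bcl2l11 stretch is in exon 3 of 4 on the plus strand of chromosome 2 (chr2:127972880-127972909). Among the survival members, the Bcl2 stretch is in exon 1 of 2 on the minus strand (chr1:108609155-108609184), the Bcl2l1 stretch in exon 2 of 3 on the minus strand (chr2:152655436-152655465), and the Mcl1 stretch in exon 2 of 4 on the plus strand (chr3:95463353-95463382). In this annotation Bak1 overlaps Ggnbp1, Bad overlaps Gpr137, Bid overlaps Bcl2l13 and Bcl2 overlaps D630008O14Rik, each on the opposite strand. Bcl2l1 overlaps the miRNA gene AL731857.1 on the same strand. These are overlaps of whole gene spans, introns included, and overlap of exons was not examined. Whether counting used strand is not given in the sources used here, so how reads from any shared exon were counted is not known.

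The libraries held 24774433 and 24333396 counts on genes in FLOX+GCI against 33076795 and 30114003 in FBN-ARO-KO+GCI. Levels are given as CPM, counts scaled to a common library size with TMM factors, and 3 counts, the smallest level that could be told from 0 by counting error alone, were between 0.0905 and 0.122 CPM. The least abundant member, Pmaip1, had 48 to 66 counts per library and the most abundant, Bcl2l1, 3534 to 4788. Cyp19a1 itself had 4 and 1 counts in FLOX+GCI against 2 and 2 in FBN-ARO-KO+GCI, which is too few to check the genotype labels. The excitatory neuron markers Camk2a (4918 to 5172 CPM) and Slc17a7 (1615 to 1851 CPM) were abundant in every library, as a hippocampus requires. The sources used here do not say if each library came from its own mouse, and state that samples were run in duplicate, so p-values measure only the spread between these samples.

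No BCL2 family transcript passed edgeR's quasi-likelihood test for a difference between FBN-ARO-KO+GCI and FLOX+GCI. None of the 10 members had an adjusted p under 0.05, where 0.0138% of all tested genes (2 of 14527) did, and none had an unadjusted p under 0.05, where 16.5% of all tested genes (2403) did. The smallest adjusted p of a member was 0.373, for Bad. The libraries separated by genotype, without such a call, for 6 of the 10 members. Of the 7 pro-death members, 5 were lower in both FBN-ARO-KO+GCI libraries than in either FLOX+GCI library (Bax, Bak1, Bad, Bbc3 and Pmaip1), and none was higher in both. Of the 3 pro-survival members, Bcl2 was higher in both FBN-ARO-KO+GCI libraries and none was lower in both. Over all tested genes such separation was common. It held for 51.8%, of which 25.8 percentage points were lower and 25.9 higher in FBN-ARO-KO+GCI. So 6 of 10 members in both directions together is near the background, and 5 of 7 pro-death members in the lower direction is above it. That background covers genes of every GC content. Among genes within 1 percentage point of the GC content of each, 94.8% (Bax), 92.75% (Bad), 93.5% (Bbc3), 81.5% (Bak1) and 19.0% (Pmaip1) had negative fold changes. Separation by library was not counted among them. The median log2 fold change was -0.24 over the pro-death members and 0.04 over the pro-survival members, beside -0.01 over all tested genes. With 1 library left out, the pro-death median was -0.15 without FBN-ARO-KO+GCI library 2 and also without FLOX+GCI library 2, and the pro-survival median was -0.01 without FBN-ARO-KO+GCI library 2 and also without FLOX+GCI library 1.

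**Figure D1:**
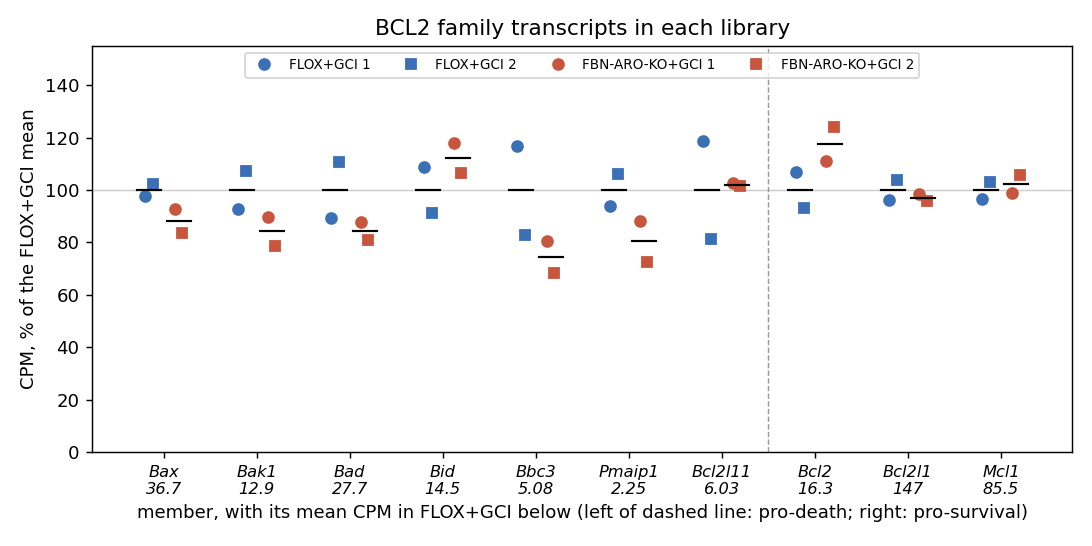
CPM of each member in each library (vertical axis, percent of the member's FLOX+GCI mean, from 0), for FLOX+GCI (blue) and FBN-ARO-KO+GCI (red), with circles for library 1, squares for library 2 and bars for group means. Both red points lie under both blue points for Bax, Bak1, Bad, Bbc3 and Pmaip1 and above them for Bcl2, and the remaining 4 members overlap.

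Among the pore formers, Bax (chr7:52717065-52722268, minus strand) had 35.9 and 37.5 CPM in FLOX+GCI against 34.0 and 30.6 CPM in FBN-ARO-KO+GCI. The 2 groups did not overlap, but the gap between the nearest libraries was smaller than the spread within FBN-ARO-KO+GCI. The log2 fold change was -0.18 (standard error 0.10, unadjusted p = 0.1001, adjusted p = 0.376, edgeR), and its 95% interval reached from -0.41 to 0.05. Bak1 (chr17:27156755-27165954, minus strand), the other pore former, had 11.97 and 13.8 CPM in FLOX+GCI against 11.6 and 10.1 CPM in FBN-ARO-KO+GCI. The nearest libraries of the 2 groups were closer to each other than the libraries within either group. The fitted log2 fold change was -0.25 (95% interval from -0.59 to 0.09, adjusted p = 0.407, edgeR). As a fold, FBN-ARO-KO+GCI over FLOX+GCI, the 95% interval was from 0.75 to 1.03 for Bax and from 0.67 to 1.07 for Bak1. Without FBN-ARO-KO+GCI library 2 the log2 fold change was -0.11 for Bax and -0.15 for Bak1, and without FLOX+GCI library 2 that of Bak1 was -0.14.

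Of the BH3-only members, Bad (chr19:7016351-7026388, plus strand), which is released from 14-3-3 proteins when survival signaling fades, had 24.7 and 30.6 CPM in FLOX+GCI against 24.3 and 22.4 CPM in FBN-ARO-KO+GCI. The groups did not overlap, but the FLOX+GCI libraries lay further from each other than library 1 did from either FBN-ARO-KO+GCI library. Its fitted change was a log2 value of -0.24 (standard error 0.13, 95% interval from -0.54 to 0.06, adjusted p = 0.373, edgeR). Without FLOX+GCI library 1 the log2 fold change of Bad was -0.39, and without FLOX+GCI library 2 it was -0.09. Bbc3 (chr7:16894965-16903554, plus strand), whose product PUMA is a target of p53, had 5.95 and 4.22 CPM in FLOX+GCI against 4.10 and 3.48 CPM in FBN-ARO-KO+GCI. It had the largest fold change of the 10 members, at -0.42 (standard error 0.23), and the most imprecise but for Pmaip1, with a 95% interval from -0.96 to 0.12 and an adjusted p of 0.387 in edgeR. Without FLOX+GCI library 2 its log2 fold change was -0.65, and without FLOX+GCI library 1 it was -0.15. Pmaip1, whose product NOXA binds MCL1, was the rarest member, with 2.12 and 2.39 CPM in FLOX+GCI against 1.99 and 1.64 CPM in FBN-ARO-KO+GCI. In the fit its log2 fold change was -0.31 (95% interval from -0.93 to 0.31, adjusted p = 0.558, edgeR), and -0.18 without FBN-ARO-KO+GCI library 2.

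The other 2 BH3-only members did not separate by genotype. Bid (chr6:120841948-120866871, minus strand), which caspase-8 cleaves into its active form, had 15.7 and 13.2 CPM in FLOX+GCI against 17.0 and 15.4 CPM in FBN-ARO-KO+GCI, with a log2 fold change of 0.17 (95% interval from -0.15 to 0.48, adjusted p = 0.541, edgeR). Without FLOX+GCI library 1 the log2 fold change of Bid was 0.30, without FLOX+GCI library 2 it was 0.04, and without FBN-ARO-KO+GCI library 1 it was 0.09. The libraries of the groups alternated in order, with an FBN-ARO-KO+GCI library highest. Bcl2l11 (chr2:127951774-127988283, plus strand), a target of FOXO transcription factors, had 7.14 and 4.91 CPM in FLOX+GCI against 6.18 and 6.11 CPM in FBN-ARO-KO+GCI. Here the FLOX+GCI libraries were the highest and the lowest, and the FBN-ARO-KO+GCI libraries sat almost together between them. The log2 fold change was 0.03 (95% interval from -0.47 to 0.53, adjusted p = 0.956, edgeR), and leaving out either FLOX+GCI library moved it to -0.22 or 0.33.

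Among the survival members, Bcl2 (chr1:108434755-108610851, minus strand), the founding member of the family, had 17.5 and 15.2 CPM in FLOX+GCI against 18.1 and 20.3 CPM in FBN-ARO-KO+GCI. The groups did not overlap, and the gap of the nearest libraries was smaller than the spread within either group. The difference on the log2 scale was 0.23 (standard error 0.13, 95% interval from -0.07 to 0.53, adjusted p = 0.387, edgeR). It was 0.13 without FLOX+GCI library 2 and 0.15 without FBN-ARO-KO+GCI library 2. Bcl2l1 (chr2:152593052-152657464, minus strand), which in neurons mainly encodes the survival isoform BCL-XL, had 141.0 and 152.6 CPM in FLOX+GCI against 144.4 and 140.8 CPM in FBN-ARO-KO+GCI. Mcl1 (chr3:95462643-95467099, plus strand), whose product is turned over quickly, had 82.8 and 88.3 CPM in FLOX+GCI against 84.7 and 90.6 CPM in FBN-ARO-KO+GCI. These were the members with the narrowest intervals. The 95% interval of the fold, FBN-ARO-KO+GCI over FLOX+GCI, was from 0.86 to 1.10 for Bcl2l1 (log2 fold change -0.04, adjusted p = 0.794, edgeR) and from 0.90 to 1.17 for Mcl1 (log2 fold change 0.04, adjusted p = 0.843, edgeR).

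**Figure D2:**
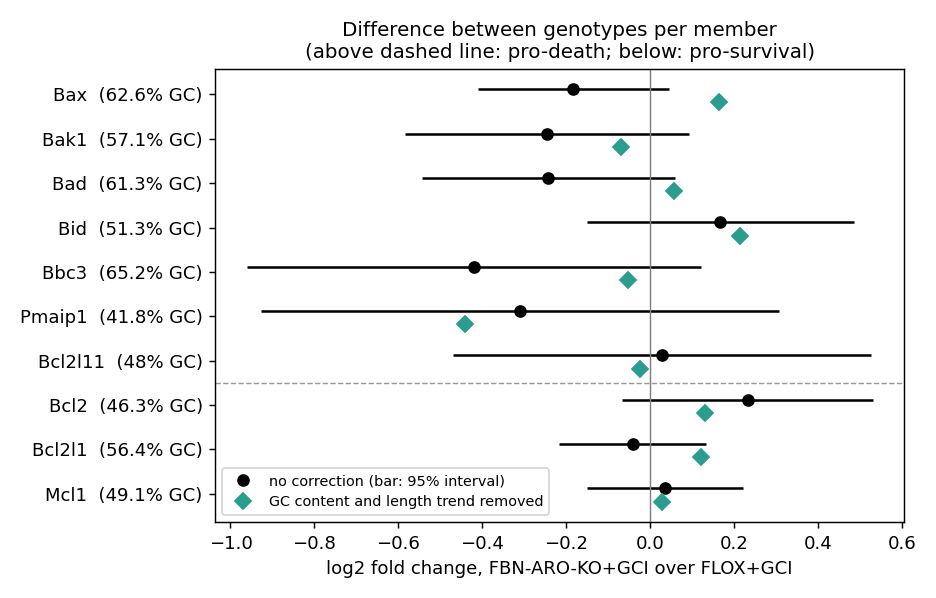
Log2 fold change of each member, FBN-ARO-KO+GCI over FLOX+GCI (horizontal axis), from edgeR without correction (black, with its 95% interval) and after removal of the trend over GC content and transcript length (green). Every black interval includes 0, and the green values of Bax, Bad, Bcl2l11 and Bcl2l1 lie on the other side of 0 from the black ones.

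Fold changes moved with the GC content of transcripts over all genes. Across the 13869 tested genes with a transcript sequence, the log2 fold change and GC content had a Spearman rho of -0.55, given as a description since the points share the same 4 libraries. The trend was also present between the FBN-ARO-KO+GCI libraries (rho -0.48 for library 2 over library 1, and -0.39 and -0.60 for libraries 1 and 2 over the FLOX+GCI mean), and was weak and opposite between the FLOX+GCI libraries (rho 0.10). The lower pro-death members were mostly GC-rich, with 62.6% in Bax, 61.3% in Bad, 65.2% in Bbc3 and 57.1% in Bak1, and Bcl2, the higher survival member, had 46.3%. Pmaip1 did not follow the trend, with the lowest GC content of the 10 members (41.8%) and a log2 fold change of -0.31.

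Genes of like GC content gave the level against which each member can be read. Among the 229 genes within 1 percentage point of the GC content of Bax, 94.8% were lower in FBN-ARO-KO+GCI and the median log2 fold change was -0.26, and Bax, at -0.18, lay nearer to 0 than that median. For Bad the median of its 400 neighbors was -0.24, beside its own -0.24. For Bbc3 it was -0.32 over 46 genes, beside its own -0.42, and for Bak1 -0.14 over 1301 genes, beside -0.25. Bcl2 stood above its 1408 neighbors (0.23 beside 0.08) and Bid above its 1413 (0.17 beside a median that rounds to 0.00). Bcl2l1 stood above its neighbors as well (-0.04 beside -0.12), while Bcl2l11 (0.03 beside 0.06) and Mcl1 (0.04 beside 0.03) lay close to theirs. The 831 neighbors of Pmaip1 had a median of 0.18, on the other side of 0 from its own value.

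**Figure D3:**
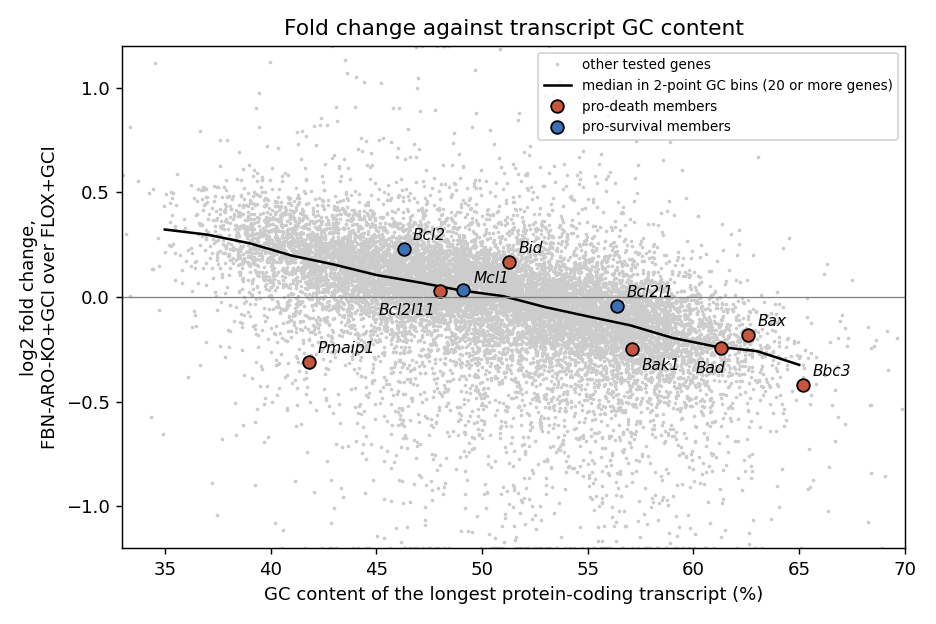
Log2 fold change (vertical axis) against the GC content of the longest coding transcript (horizontal axis, percent) for all tested genes (grey), with values beyond 1.2 drawn at the edge, the median in bins of 2 points (line) and the 10 members (red pro-death, blue pro-survival). Bax, Bad and Bbc3 lie near the falling line at its GC-rich end, and Pmaip1, at -0.31, lies under neighbors whose median is 0.18.

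When each library was freed of its trend over GC content and length, fewer members separated by genotype. The median log2 fold change of the pro-death members was -0.03 and that of the pro-survival members 0.12, beside 0.03 over all tested genes. The 10 members still held no call. Separation by library then held for 44.4% of all tested genes and for 4 members. These were Bax, Bid and Bcl2l1, all higher in FBN-ARO-KO+GCI, and Pmaip1, lower. The share of 44.4% was not split by direction. Of the 1658 genes with an unadjusted p under 0.05 in edgeR after the correction, 1148 were higher. The corrected log2 fold change was 0.16 for Bax (adjusted p = 0.508, edgeR), 0.06 for Bad, -0.05 for Bbc3, -0.07 for Bak1 and 0.13 for Bcl2. Pmaip1 was at -0.44 (standard error 0.27, adjusted p = 0.577, edgeR). With GC content averaged over all coding transcripts of a gene, an alternative chosen after the data were seen, Bcl2 took the place of Bcl2l1 among the 4. The part of the trend in the uncorrected values of these genes was not tested, and in a design with 2 libraries a group the trend and the genotype cannot be told apart.

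Scaled by transcript length, which allows levels of different genes to be compared, Bcl2l1 was the most abundant member in every library (58.2 to 63.1 CPM per kb). Bax followed (29.2 to 35.7), then Mcl1 (23.7 to 26.0) and Bad (15.4 to 21.1), and none of these 4 ranges overlapped its neighbor. Bid (5.48 to 7.06) and Bak1 (4.25 to 5.80) formed the next step and overlapped each other, as did Bbc3 (1.92 to 3.28) and Bcl2 (2.12 to 2.82) under them. Bcl2l11 (0.9747 to 1.42) and Pmaip1 (0.619 to 0.905) were the lowest. The order was the same in all 4 libraries but for those 2 overlapping pairs. Bak1 exceeded Bid only in FLOX+GCI library 2, and Bbc3 exceeded Bcl2 in both FLOX+GCI libraries while Bcl2 exceeded Bbc3 in both FBN-ARO-KO+GCI libraries. With the length of all annotated exons in place of the longest transcript, Bak1 exceeded Bid in 3 libraries, Bcl2 exceeded Bbc3 in all but FLOX+GCI library 1, Mcl1 exceeded Bax in FBN-ARO-KO+GCI library 2, and Pmaip1 exceeded Bcl2l11 in FLOX+GCI library 2. Neither scaling follows which isoforms were made.

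**Figure D4:**
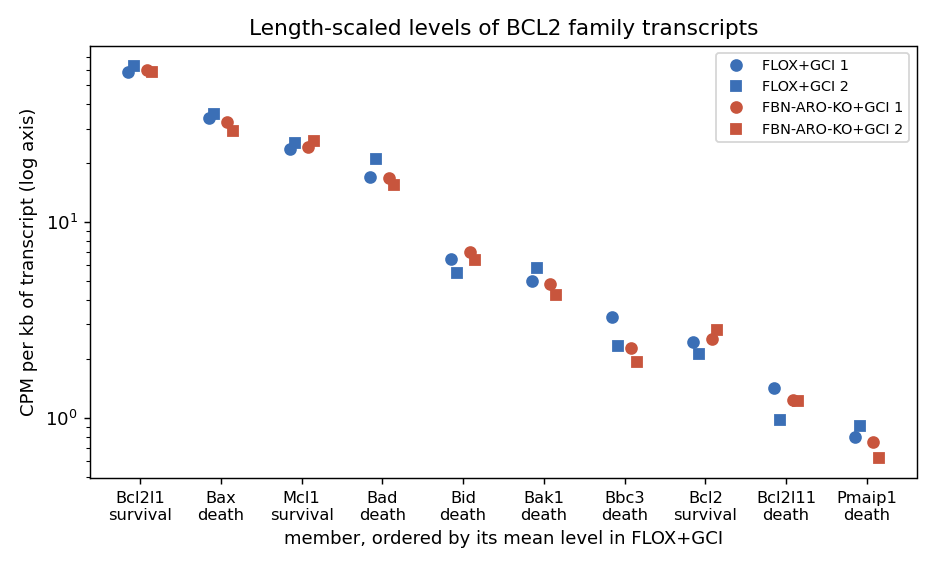
Level of each member in each library (vertical axis, CPM per kb of its longest coding transcript, log scale), ordered by the FLOX+GCI mean, with FLOX+GCI in blue and FBN-ARO-KO+GCI in red. Bcl2l1 at 58.2 to 63.1 CPM per kb heads the order and Pmaip1 at 0.619 to 0.905 ends it.

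On the level scaled by the longest transcript, Bcl2l1 made up 66.9% to 69.7% of the summed pro-survival level, Mcl1 27.97% to 29.9% and Bcl2 2.34% to 3.24%. Bax made up 49.4% to 50.1% of the summed pro-death level and Bad 25.0% to 29.2%. These shares depend on the lengths used. With the length of all annotated exons, Bcl2l1 was at 29.7 to 32.2 CPM per kb over the libraries. Mcl1 was then at 23.7 to 26.0 and Bax at 22.9 to 27.99, so the lead of Bcl2l1 over both was much smaller. Shares and sums were not computed with that length. The summed pro-survival level was 84.5 and 90.6 CPM per kb in FLOX+GCI against 86.6 and 87.1 in FBN-ARO-KO+GCI, so the groups overlapped. The summed pro-death level was 68.3 and 72.3 in FLOX+GCI against 65.3 and 59.0 in FBN-ARO-KO+GCI, and did not overlap.

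The ratio of survival to death transcripts within a library was 1.24 and 1.25 in FLOX+GCI against 1.33 and 1.48 in FBN-ARO-KO+GCI. Its size depends on the lengths used for scaling, and it was not computed with the length of all annotated exons. The ratio of Bcl2 to Bax was 0.0710 and 0.0592 in FLOX+GCI against 0.0778 and 0.0966 in FBN-ARO-KO+GCI. Both ratios were higher in each FBN-ARO-KO+GCI library than in either FLOX+GCI library, and they are built from members of differing GC content. They are given without a test, since an exact permutation test of 2 against 2 libraries cannot give a two-sided p under 0.333. With the trend over GC content and length removed, the summed ratio was 1.34 and 1.31 in FLOX+GCI against 1.28 and 1.35 in FBN-ARO-KO+GCI, and that of Bcl2 to Bax was 0.0847 and 0.0679 against 0.0734 and 0.0749. After this removal the groups overlapped for both. The ratio of Mcl1 to Pmaip1, a binding pair, was 29.7 and 28.02 in FLOX+GCI against 32.3 and 42.0 in FBN-ARO-KO+GCI, and stayed without overlap after the removal, at 28.9 and 26.4 against 32.3 and 46.0. It rests on the 48 to 66 counts of Pmaip1. The ratio of Bcl2l1 to Bax went the other way after the removal, from 1.70 and 1.77 against 1.84 and 1.99 before it to 1.86 and 1.84 in FLOX+GCI against 1.77 and 1.83 in FBN-ARO-KO+GCI. Those of Mcl1 to Bak1 and Bcl2l1 to Bad were higher in FBN-ARO-KO+GCI without overlap before the removal and overlapped after it, and those of Mcl1 to Bcl2l11 and Bcl2 to Bcl2l11 overlapped before it.

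Of the other pro-death members of the family, 6 of 8 were tested and none had an adjusted p under 0.05. Hrk, a BH3-only gene of neurons, had 81.6 and 81.5 CPM in FLOX+GCI against 105.3 and 96.4 CPM in FBN-ARO-KO+GCI. Its FLOX+GCI libraries were almost equal and both FBN-ARO-KO+GCI libraries lay above them. The fitted log2 fold change was 0.31 (standard error 0.08, unadjusted p = 0.0053, adjusted p = 0.238, edgeR), and 0.31 again with the trend over GC content and length removed (adjusted p = 0.33, edgeR), at a GC content of 51.4%. Bok, a relative of the pore formers, had 87.1 and 82.7 CPM in FLOX+GCI against 77.4 and 71.4 CPM in FBN-ARO-KO+GCI, giving a log2 fold change of -0.19 that was 0.11 after the removal. Bnip3l, a mitophagy receptor with a BH3-like segment, had a log2 fold change of 0.28 with overlapping groups. Bik had 5 and 1 counts in FLOX+GCI against 1 and 1 in FBN-ARO-KO+GCI, and Bcl2l14 had 1 count in 1 FLOX+GCI library and 0 in the rest, which allows up to 3 counts.

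Of the other survival members, only Bcl2l2, which encodes BCL-W, passed the filter on low counts. It had 191.2 and 188.0 CPM in FLOX+GCI against 185.4 and 203.1 CPM in FBN-ARO-KO+GCI (log2 fold change 0.03, adjusted p = 0.835, edgeR). Bcl2l10 had 3 and 1 counts in FLOX+GCI against 0 and 1 in FBN-ARO-KO+GCI. The Bcl2a1 copies are nearly identical, so reads cannot be assigned to 1 of them with certainty, and Bcl2a1a, Bcl2a1b, Bcl2a1c and Bcl2a1d had between 0 and 11 counts per library.

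Downstream of the pore, none of the 12 listed genes of the mitochondrial death machinery had an adjusted p under 0.05. The fold changes of 7 were above 0, as were those of 48.7% of all tested genes. Xiap, an inhibitor of caspases, had 91.9 and 84.6 CPM in FLOX+GCI against 96.1 and 128.2 CPM in FBN-ARO-KO+GCI. The log2 fold change, 0.34, became 0.02 after the removal, at a GC content of 36.8%. Apaf1, the scaffold that cytochrome c activates, had a log2 fold change of 0.28 and of 0.17 after the removal. Cycs, the gene of cytochrome c, had 11.4 and 8.36 CPM in FLOX+GCI against 11.5 and 14.5 CPM in FBN-ARO-KO+GCI. Its groups did not overlap, with FLOX+GCI library 1 close to FBN-ARO-KO+GCI library 1. The value was 0.40 (standard error 0.19, adjusted p = 0.343, edgeR) on the log2 scale, and 0.23 after the removal.

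Upstream, none of the 14 tested transcriptional regulators had an adjusted p under 0.05. Jun, an activator of Hrk and Bcl2l11 in neurons, had 110.0 and 107.9 CPM in FLOX+GCI against 94.2 and 90.6 CPM in FBN-ARO-KO+GCI (log2 fold change -0.24, adjusted p = 0.245, edgeR), and the value was -0.11 after the removal. Creb1, an activator of Bcl2, had 54.0 and 48.3 CPM in FLOX+GCI against 60.1 and 72.3 CPM in FBN-ARO-KO+GCI, giving a log2 fold change of 0.37 that was 0.13 after the removal. For Atf4, a factor of the stress response, the log2 fold change was -0.14 and then -0.01. The estrogen receptor gene Esr2 had 2 and 7 counts in FLOX+GCI against 2 and 5 in FBN-ARO-KO+GCI and was not tested.

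Of the 18 kinases, ligases and binding proteins that act on family members, none had an adjusted p under 0.05, and the fold changes of 13 were above 0. Over all tested genes 48.7% were above 0. The list median went from 0.08 to 0.02 with the trend over GC content and length removed, beside 0.03 over all tested genes. Akt1, which phosphorylates BAD, had 210.3 and 214.9 CPM in FLOX+GCI against 189.4 and 180.4 CPM in FBN-ARO-KO+GCI, giving a log2 fold change of -0.20 that was 0.03 after the removal. Ppp3ca, the catalytic subunit of calcineurin, which dephosphorylates BAD, had a log2 fold change of 0.21 and then 0.11. Gsk3b, which marks MCL1 for turnover, was at 0.17 and then 0.06. Of the 13 genes tested and named from these lists, Hrk kept nearly the same value after the removal. Bok and Akt1 changed sign, Bcl2l2 went from 0.03 to 0.10, and Bnip3l, Xiap, Apaf1, Cycs, Jun, Creb1, Atf4, Ppp3ca and Gsk3b came closer to 0.

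**Figure D5:**
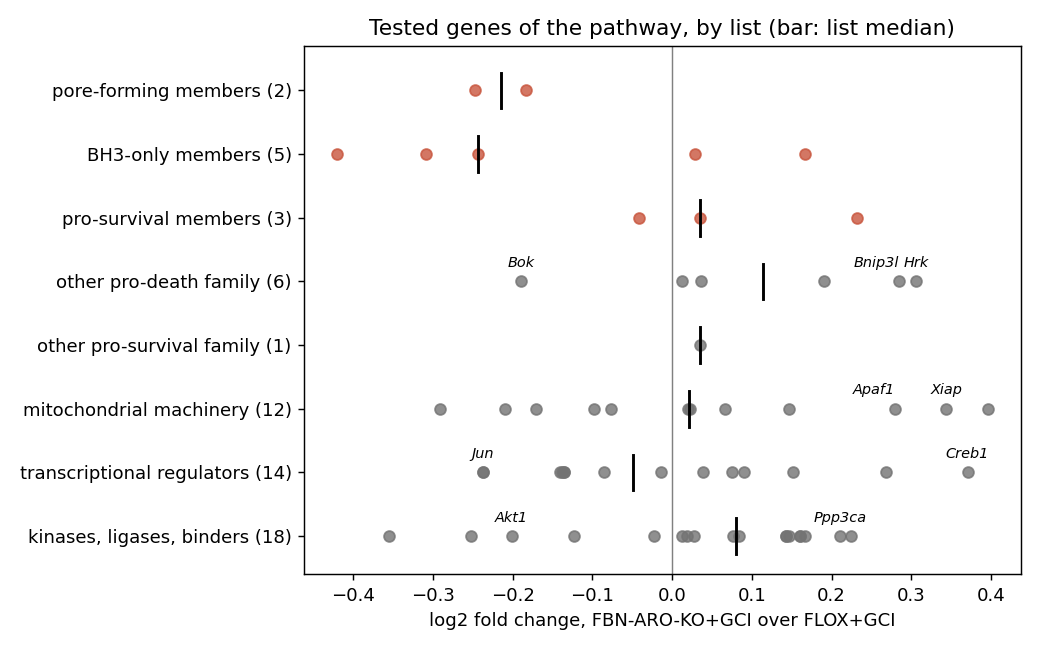
Log2 fold change, FBN-ARO-KO+GCI over FLOX+GCI (horizontal axis), of each tested gene of the pathway, 1 row per list with the number tested in brackets, members in red, other genes in grey and list medians as bars. No point passed an adjusted p of 0.05, the pro-death member rows have medians of -0.22 and -0.24, and the pro-survival row has a median of 0.04.

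The members are expressed in many cell types, so the make-up of the samples was read beside them, and in bulk tissue fewer cells of a type and less RNA per cell cannot be told apart. Unless stated, these values are without the correction for GC content and length. The summed level of the 6 excitatory neuron markers was 11108 and 11138 CPM in FLOX+GCI against 11226 and 11507 CPM in FBN-ARO-KO+GCI, with Snap25, Neurod6 and Camk2a higher and Nrgn, Rbfox3 and Slc17a7 lower in both libraries. With the correction all 6 log2 fold changes were positive, where the median over all tested genes was 0.03. They were 0.04 for Nrgn, 0.03 for Rbfox3, 0.07 for Slc17a7, 0.11 for Snap25, 0.03 for Neurod6 and 0.09 for Camk2a. Those of Nrgn, Rbfox3 and Neurod6 were thus near that median. All 4 endothelial markers had lower means in FBN-ARO-KO+GCI with overlapping groups, and their sum was 159 and 106 CPM in FLOX+GCI against 124 and 90.1 CPM in FBN-ARO-KO+GCI. The sum of the 4 choroid plexus markers was 31.4 and 24.3 CPM in FLOX+GCI against 11.8 and 17.99 CPM in FBN-ARO-KO+GCI. Most of this sum was Ttr (26.5 and 21.9 against 8.93 and 15.6 CPM), and of the remaining 3, Kcnj13 had a log2 fold change of -1.45 with overlapping groups, Folr1 of 0.20 and Clic6 of 0.24. None of the 4 had an adjusted p under 0.05, and with the replicate number as a block Ttr (adjusted p = 0.0136, edgeR) and Kcnj13 (0.04993) did. The 6 astrocyte markers summed to 4732 and 4986 CPM in FLOX+GCI against 4934 and 5658 CPM in FBN-ARO-KO+GCI, and microglia markers to 297 and 292 against 281 and 310. The astrocyte sum was mostly Slc1a2, at 3151 and 2988 against 3280 and 3800 CPM, while Aldh1l1 was lower in both FBN-ARO-KO+GCI libraries (log2 fold change -0.30, adjusted p = 0.238, edgeR). With the correction the log2 fold change of Slc1a2 went from 0.21 to 0.10. The median over the 6 astrocyte markers went from 0.10 to -0.05. Gfap was at 396 and 900 CPM in the 2 FLOX+GCI libraries, with both FBN-ARO-KO+GCI libraries between them at 502 and 560 CPM. Hbb-b1 and Hba-a1 of red blood cells had 0 counts in every library. Reads without a unique alignment (35.1% to 36.5% of all) were not counted, which can empty genes with near-identical copies. The blood content of the samples therefore cannot be read from these 0 counts. No neutrophil marker exceeded 16 counts. The part of these differences in the values of the members was not tested.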

How the data were processed

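Per the labels, total RNA of the hippocampus was sequenced as 50 bp single-end reads. The authors aligned the reads to mm9 with TopHat2 2.0.8b and deposited the unnormalized counts that HTSeq gave for each gene symbol. The strand setting and annotation release are not given in the sources used here. In each library 5 counters of unassigned reads (43.4% to 45.5% of all) were left out. Groups came from the sample titles.

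Genotypes were compared with edgeR 4.0.16 in R 4.3.3 (quasi-likelihood test, TMM, filterByExpr with a minimum count of 10, Benjamini-Hochberg adjustment over 14527 genes at 0.05). The study used DESeq. Standard errors are the log2 fold change over the square root of F. With 2 libraries per group an exact two-sided permutation test cannot give a p under 0.333, so none was used. The libraries of a group differed by more than counting error (chi-square per degree of freedom 10.9 and 12.8), so none was 1 library deposited again. GENCODE M1 on NCBIM37, identical to mm9, gave positions, lengths and GC content, and all 10 members matched. The GC and length correction was a natural spline (5 degrees of freedom) per library that entered edgeR as an offset.

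All members were named, and of each pathway list the up to 3 reported genes with the smallest p and the genes under the filter with their counts. One further gene is not reported here. The members and lists were chosen with earlier results of these data known. Alternatives were DESeq2 1.42.0, DESeq-style size factors, library totals, a likelihood ratio test, filters of 1 count and of a mean of 50 counts, the replicate block, the GC correction and each library left out. The procedure was also run on simulated counts with changes larger than those of any member, so that run does not measure power for the members.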

Additional observations from a re-analysis of the deposited data

How the results depend on the processing

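No member had an adjusted p under 0.05 in edgeR under any of the 13 edgeR alternatives. DESeq2 gave an adjusted p to 2 members only, Bcl2l1 (0.8391) and Mcl1 (0.8813), and the smallest unadjusted p of a member there was 0.141. Of the 140 member values under the 14 alternatives, 122 kept the direction reported, and Bak1, Bid, Pmaip1 and Bcl2 kept it throughout. With library totals only, Bcl2l11 was at -0.00702 and Mcl1 at -0.00148. With the GC and length correction the log2 fold change was 0.165 for Bax, 0.0571 for Bad, -0.025 for Bcl2l11 and 0.122 for Bcl2l1, and the medians were -0.025 over the pro-death and 0.122 over the pro-survival members. With that correction and the replicate block they were 0.166, 0.067, -0.00953 and 0.122, with medians of -0.00953 and 0.122. With GC content and length averaged over transcripts, chosen after the data were seen, Bax was at 0.124, Bad at 0.0343, Bbc3 at 0.027 and Bcl2l1 at 0.0616, with a pro-death median of 0.027. With 1 library left out in turn, the value of Mcl1 ranged from -0.0128 to 0.0801, that of Bcl2l11 from -0.219 to 0.326, that of Bcl2l1 from -0.0963 to 0.0128, the pro-death median from -0.307 to -0.154 and the pro-survival median from -0.0128 to 0.0801, the lone library being assumed to vary like the other group. Bad was at -0.387 without FLOX+GCI library 1 and at -0.0857 without FLOX+GCI library 2. Bbc3 was at -0.15 and -0.649 in the same order.

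Over all genes, the 2 calls became 285 in DESeq2 (202 higher, from 5796 genes with an adjusted p), 294 in the likelihood ratio test (139 higher), 5 with every gene of at least 1 count, 184 with the replicate block (42 higher) and 0 to 193 with a library left out. The cause was not tested. Same-numbered libraries deviated together with a correlation of 0.129 over genes. With 2 pairs, and no source for what the numbers mark, they were not taken as paired, and the replicate block (adjusted p of 0.346 to 0.936 for the members) changed no call of a member. Depth limits Pmaip1 and Bbc3, with 48 to 149 counts per library.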
